A study of Mus musculus with 6 samples.

Results

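Cytoplasmic actins, tropomyosins and actin-binding proteins regulated by serum response factor (SRF) were followed as a set of 10 genes in sorted mouse bone marrow cells. The set holds Actb, Actg1, Tpm1, Tpm3, Tpm4, Vcl, Zyx, Flna, Tagln2 and Coro1a, and its probes were those whose symbol in the annotated table equals 1 of these names. Probes carrying 9 of the 10 names were found, 21 of the 45281 probes in all, and Actg1 was not analysed here. After the requirement that a probe be detected on at least 3 of the 6 arrays, 17 of the 21 probes were tested, at least 1 for each of the 9 genes.

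Actin monomers assemble into filaments, and tropomyosins lie along those filaments and set which other proteins can bind. Free actin monomers hold the coactivator MRTF outside the nucleus. When formins such as mDia2, the product of Diaph3, build filaments, MRTF is released and joins SRF at CArG boxes in the promoters of actin and actin-binding genes. Erythroid cells use short actin filaments in the membrane skeleton and an actin ring at cytokinesis, and white blood cells use the same proteins for movement and adhesion.

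RNA came from Ter119-positive cells, an erythroid fraction selected by a red cell surface antigen, of 6 C57BL/6 mice aged 4 months, with 1 Illumina bead array per mouse. The groups were 3 wild type mice and 3 mice carrying a conditional knockout of mDia2, and the design text calls them biological replicates. The Cre line behind the conditional allele, and whether the wild type mice carried a floxed allele or Cre, are not stated in the sources used here. The arrays detected 14815 to 16951 probes each, with the highest count in wild type replicate 3 and the lowest in knockout replicate 1, and correlations between arrays ran from 0.971 to 0.994. The number of arrays limits the precision: the smallest two-sided p of an exact permutation test over 3 and 3 mice is 0.1. Of 19 listed erythroid markers 15 were tested, and their mean log2 signal lay between 12.35 and 12.57 on the 6 arrays. The target was read by a Diaph3 probe listed under the older symbol Diap3, which gave 1045, 965 and 969 in wild type and 574, 341 and 486 in knockout mice. Its log2 change of -1.12 (SE 0.18) had a limma adjusted p of 0.0917, and the sources used here do not place the probe relative to the deletion. A second Diap3 probe, nearer to background, read 119, 106 and 112 against 94.9, 101 and 97.1, a log2 change of -0.20 (SE 0.08, limma adjusted p = 0.225), and the mean of both probes changed by -0.66 (adjusted p = 0.0859).

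Promoter windows from RefSeq (build GRCm38.p6) were available for 9 of the 10 genes, Actb being the one without, and each spans 250 bases before to 50 bases after the annotated start. A CArG box, the site bound by SRF, was searched by name on both strands and lay in the windows of Vcl and Actg1, and in 1.63% of the 32851 mouse windows. In Vcl it reads CCTTATAAGG and begins 227 bases before the start, and in Actg1 it reads CCATATATGG and begins 90 bases before it. The ETS-type motif GAGGAA lay in 28.3% of all windows, the GATA motif AGATAA in 11.2% and the TATA motif TATAAA in 13.6%, each on either strand. Among the members GAGGAA lay in windows of Tpm1 and Tpm3, AGATAA in a window of Tpm3, and TATAAA in none. The windows below are those of Vcl, shown for its CArG box, of the 3 genes with the largest changes (Zyx, Coro1a and Tpm4), and of Tpm1, the gene with a higher mean in the knockout mice. Each is printed 5′ to 3′ on the strand of its gene, with a CArG box or a GAGGAA match in capitals, with Coro1a shown by the upstream one of its windows, and the coordinates of the whole window in parentheses.
Vcl (chr14:20929148-20929447, plus strand): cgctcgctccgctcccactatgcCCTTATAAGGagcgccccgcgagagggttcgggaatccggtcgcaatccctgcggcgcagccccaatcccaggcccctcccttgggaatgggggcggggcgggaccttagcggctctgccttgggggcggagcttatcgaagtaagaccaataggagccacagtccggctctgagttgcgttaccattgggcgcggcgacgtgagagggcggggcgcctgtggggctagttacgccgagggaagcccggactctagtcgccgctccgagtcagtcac
Zyx (chr6:42349578-42349877, plus strand): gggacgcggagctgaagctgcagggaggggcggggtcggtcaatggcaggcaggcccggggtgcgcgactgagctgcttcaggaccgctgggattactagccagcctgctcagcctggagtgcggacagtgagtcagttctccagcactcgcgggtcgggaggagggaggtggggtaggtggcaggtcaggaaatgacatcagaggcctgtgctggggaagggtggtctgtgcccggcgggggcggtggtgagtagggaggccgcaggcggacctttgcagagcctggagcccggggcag
Coro1a (chr7:126704767-126705066, minus strand): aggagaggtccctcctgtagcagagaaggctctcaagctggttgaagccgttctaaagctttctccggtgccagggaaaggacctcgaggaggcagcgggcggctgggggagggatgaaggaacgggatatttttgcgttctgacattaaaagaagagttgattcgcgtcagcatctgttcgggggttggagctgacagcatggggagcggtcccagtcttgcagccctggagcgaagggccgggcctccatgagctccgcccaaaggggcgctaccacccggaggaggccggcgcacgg
Tpm4 (chr8:72135038-72135337, plus strand): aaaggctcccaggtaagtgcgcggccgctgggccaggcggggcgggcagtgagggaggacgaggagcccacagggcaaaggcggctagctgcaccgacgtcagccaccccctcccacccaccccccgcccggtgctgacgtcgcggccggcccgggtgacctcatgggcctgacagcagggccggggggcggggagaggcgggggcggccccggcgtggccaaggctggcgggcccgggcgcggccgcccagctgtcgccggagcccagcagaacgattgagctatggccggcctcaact
Tpm1 (chr9:67049164-67049463, minus strand): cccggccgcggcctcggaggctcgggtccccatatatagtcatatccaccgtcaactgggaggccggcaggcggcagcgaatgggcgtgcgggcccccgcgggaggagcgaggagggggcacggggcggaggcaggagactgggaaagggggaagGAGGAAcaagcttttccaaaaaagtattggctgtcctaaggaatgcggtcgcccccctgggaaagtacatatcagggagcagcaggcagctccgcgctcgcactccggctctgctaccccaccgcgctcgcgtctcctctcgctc
The windows of Zyx, Coro1a and Tpm4 held none of the motifs searched. A match describes the letters of a window, not a bound site, and no match says only that these letters are absent from it.

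The question put to the arrays was which of these genes differed between the genotypes and how their signal moved with that of the white blood cells in the samples. Of the 9 genes, 8 had a lower mean in the knockout mice, where 81.2% of all tested genes did, and Tpm1 had a higher one. Zyx, Coro1a and Tpm4 had the largest differences, with knockout means at 30.8%, 31.1% and 33.0% of the wild type means. Actb and Vcl stood at 80.2% each. None of the 9 passed at an adjusted p under 0.05 over all tested probes, where 0.104% of the 11567 tested genes passed as lower and 0% as higher. At an unadjusted p under 0.05, 8 of the 9 were lower, against 18.6% of all tested genes, and 0 were higher, against 1.3%. The groups did not overlap for 6 of the 9, all lower in the knockout, against 23.2% of all tested genes, and for 0 with the knockout higher, against 2.01%. A log2 change of -0.5 or lower was found for 5 of the 9 and for 4.34% of all tested genes. The median log2 change of the 9 was -0.60, beside -0.11 over all tested genes, so the members lay 0.50 below that general shift. Without knockout replicate 2, 3 of the 9 passed, Zyx (log2 change -2.12, limma adjusted p = 0.0381), Coro1a (-2.02, 0.0452) and Tpm4 (-1.64, 0.0487), where 1.31% of all tested genes passed in either direction. With all 6 mice, Tpm4 passed when the arrays were centred on the tested probes, where 0.294% of all genes did. With an intensity trend 2 passed, where 0.908% of all genes did, and with array weights 3 passed, where 1.28% did. Without knockout replicate 3 the unadjusted count was 4, against 10.6% of all genes in either direction, and without knockout replicate 1 it was 5, against 13.3%. In bulk samples fewer cells of a type and less RNA per cell cannot be told apart.

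**Figure D1:**
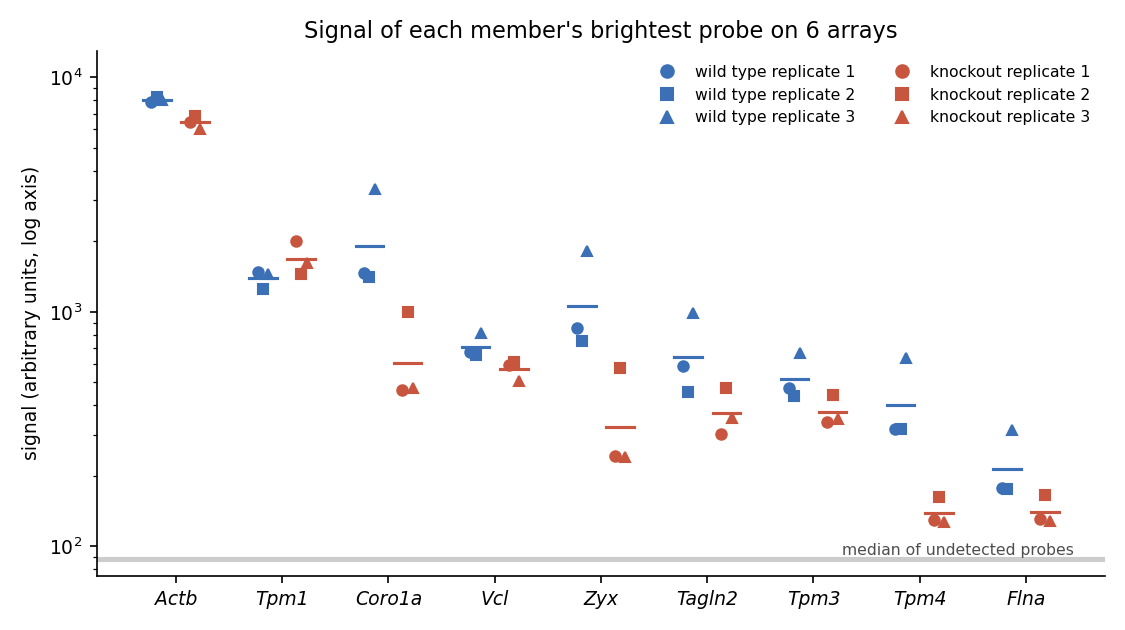
Signal of the brightest probe of each of the 9 genes on the 6 arrays, in arbitrary units on a log axis; points are mice, short bars are geometric means of a genotype, and the grey band is the median signal of undetected probes. Zyx, Coro1a and Tpm4 show the widest gaps between genotypes, wild type replicate 3 is the highest wild type mouse in 7 of 9 genes and knockout replicate 2 the highest knockout mouse in 8 of 9.

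Beta-actin, the main cytoplasmic actin, was read by 5 tested Actb probes. The brightest gave 7837, 8219 and 8019 in wild type and 6456, 6841 and 6014 in knockout mice. No knockout mouse reached the lowest wild type mouse. Its means were 8025 ± 191 (SD, n = 3) and 6437 ± 414 (SD, n = 3), a log2 change of -0.32 (SE 0.08). The limma p was 0.00358 unadjusted and 0.180 adjusted. Another bright probe read 7121, 7137 and 8028 in wild type and 6440, 7381 and 6498 in knockout mice, and there the groups overlapped (log2 change -0.13). Without wild type replicate 1 or 2 that probe was the brightest, and the change of Actb by the brightest probe was then -0.16 in each case, while the probe described first kept -0.34 and -0.30. Centred on the tested probes the first probe gave -0.145 (limma adjusted p = 0.37). The next read 1747, 1822 and 2957 against 1770, 1645 and 1767, with wild type replicate 3 alone standing high. The other two Actb probes, at mean signals of 252 and 244, had log2 changes of -0.52 and -0.49 with overlapping groups. Beta-actin shares most of its coding sequence with gamma-actin and has many processed pseudogenes, and the probes' own sequences were not analysed here, so a probe may read more than 1 transcript.

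The tropomyosin genes differed in direction. Tpm1, whose products include muscle tropomyosins and, in human red cells, a short form of the membrane skeleton, gave 1478, 1252 and 1455 in wild type and 2004, 1455 and 1611 in knockout mice. Knockout replicate 1 stood highest and knockout replicate 2 lay among the wild type mice. Mean signals were 1395 ± 125 (SD, n = 3) and 1690 ± 283 (SD, n = 3). A log2 change of 0.27 (limma 95% interval -0.04 to 0.57) had an adjusted p of 0.308. Relative to the median of all genes the change was 0.37, centred on the tested probes it was 0.44, and without knockout replicate 1 it was 0.14. The other Tpm1 probe, at a mean signal of 499, gave 0.12, with overlapping groups, and correlated with the first at r = 0.855 over the 6 arrays.

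Tpm3, which encodes short tropomyosins of nonmuscle cells, among them another form of the human red cell membrane, read 472, 436 and 671 in wild type and 338, 442 and 348 in knockout mice. Knockout replicate 2 lay just above the lowest wild type mouse, so the groups overlapped. The log2 change was -0.47 (SE 0.18), with a limma p of 0.0295 unadjusted and 0.226 adjusted. It was -0.28 without wild type replicate 3 and -0.29 when centred on the tested probes. The other 3 Tpm3 probes were detected on none of the arrays.

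Tpm4, a short tropomyosin of nonmuscle cells known from platelets, read 316, 317 and 639 in wild type and 129, 162 and 128 in knockout mice. Every knockout mouse lay well below every wild type mouse, and wild type replicate 3 stood above the other two. Mean signals were 424 ± 186 (SD, n = 3) and 140 ± 19.7 (SD, n = 3). With a log2 change of -1.53 (SE 0.27), Tpm4 had the smallest p of the 9 genes, 0.000499 unadjusted and 0.119 adjusted in limma. The other Tpm4 probe was detected on 1 array and was not tested. Set against Tpm1 on the same array, the log2 difference of Tpm4 minus Tpm1 was -2.23, -1.98 and -1.19 in wild type and -3.95, -3.16 and -3.66 in knockout mice. These differences did not overlap between genotypes, and the knockout mean lay -1.79 log2 units from that of the wild type.

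**Figure D2:**
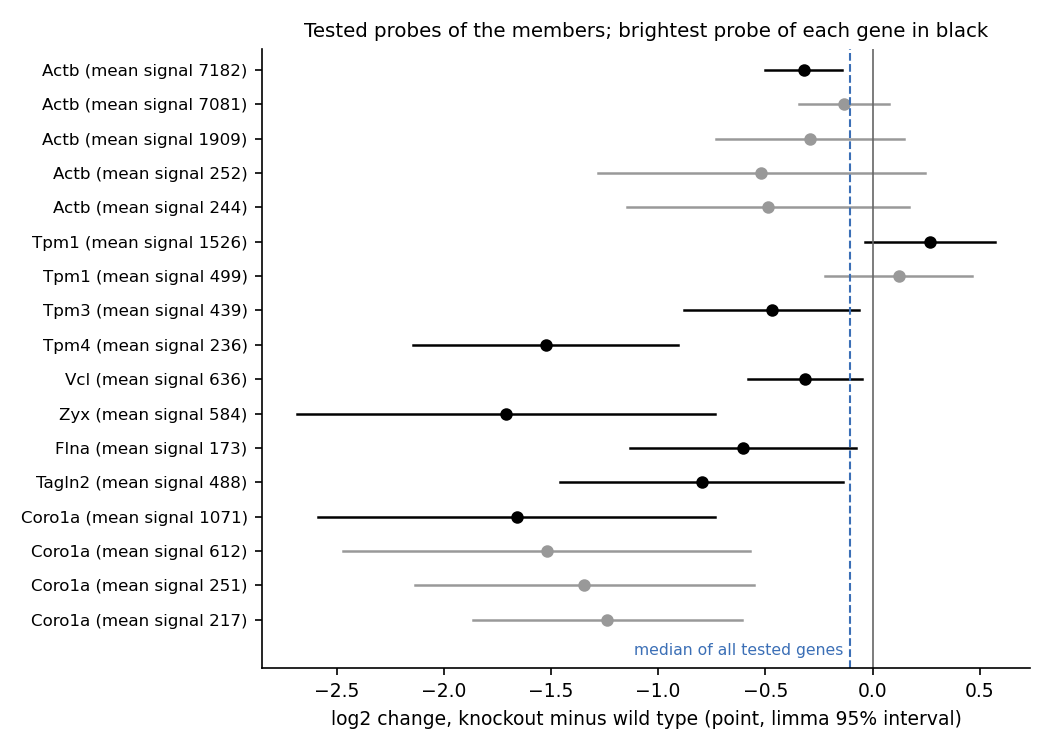
Log2 change, knockout minus wild type, of the 17 tested probes of the 9 genes, with limma 95% intervals; the brightest probe of each gene is black, other probes are grey, labels give each probe's geometric mean signal over the 6 arrays, and the dashed line is the median of all tested genes (-0.11). All 4 Coro1a probes lie at -1.24 or lower, both Tpm1 probes lie above 0 with intervals that reach it, and the 5 Actb probes lie between -0.52 and -0.13.

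Vinculin and zyxin are found where actin filaments meet adhesion sites, vinculin as a link between talin and actin and zyxin as a protein that gathers at stretched filaments. Vcl read 674, 655 and 810 in wild type and 597, 614 and 505 in knockout mice. The groups did not overlap, though knockout replicate 2 and wild type replicate 2 lay close together. The log2 change was -0.32 (SE 0.11), with a limma p of 0.0257 unadjusted and 0.219 adjusted, and it was -0.14 when centred on the tested probes (adjusted p = 0.369). Zyx read 854, 755 and 1822 in wild type and 243, 574 and 241 in knockout mice. Here too the groups did not overlap, and wild type replicate 3 and knockout replicate 2 were the high mouse of each genotype. The Zyx means were 1144 ± 590 (SD, n = 3) and 353 ± 191 (SD, n = 3), a log2 change of -1.71 (SE 0.42). Its limma p was 0.00391 unadjusted and 0.180 adjusted. The log2 difference of Zyx minus Vcl was 0.34, 0.21 and 1.17 in wild type and -1.29, -0.10 and -1.07 in knockout mice, without overlap.

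Flna encodes filamin A, which crosslinks filaments and anchors them to membrane receptors. It read 177, 176 and 314 in wild type and 131, 166 and 128 in knockout mice. The groups did not overlap, but knockout replicate 2 came close to the lowest wild type mouse. Its log2 change was -0.60 (SE 0.23), with a limma p of 0.0301 unadjusted and 0.227 adjusted, and it was -0.33 without wild type replicate 3.

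Tagln2 encodes transgelin 2, an actin-bundling protein of the calponin family. It read 589, 455 and 993 in wild type and 302, 474 and 354 in knockout mice. Knockout replicate 2 exceeded wild type replicate 2, so the groups overlapped. The log2 change was -0.80 (SE 0.28), with a limma p of 0.0237 unadjusted and 0.215 adjusted, and it was -0.48 without wild type replicate 3.

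Coro1a encodes coronin 1A, which acts on the actin network of white blood cells and is used as a marker of them. Its brightest probe read 1459, 1415 and 3345 in wild type and 465, 997 and 472 in knockout mice. The groups were apart, with wild type replicate 3 and knockout replicate 2 again the highest of their groups. Mean signals were 2073 ± 1102 (SD, n = 3) and 645 ± 305 (SD, n = 3), a log2 change of -1.66 (SE 0.40) with a limma p of 0.00345 unadjusted and 0.177 adjusted. The other 3 Coro1a probes gave -1.52, -1.34 and -1.24, each without overlap, and the 4 probes correlated with each other at r = 0.955 to 0.992 over the 6 arrays. Zyx followed Coro1a closely: the log2 difference of Zyx minus Coro1a stayed between -0.97 and -0.77 on all 6 arrays, although each gene alone varied widely between arrays.

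Brightness was classed by the mean log2 signal of a probe over the arrays. Of the 9 genes, 7 were bright by their brightest probe, above the 75th percentile of tested probes (a signal of 375): Actb, Tpm1, Tpm3, Vcl, Zyx, Tagln2 and Coro1a. The other two, Tpm4 and Flna, lay between the median of tested probes (161) and that level, and 0 lay below the median. Of the 21 probes, 11 were bright, 6 lay in the middle class, 0 were dim and 4 were not detected. A probe's signal also depends on its own hybridisation, so these classes order probes and not transcripts. The genes with the largest changes came from both classes: Zyx and Coro1a were bright, and Tpm4 was not.

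The neutrophil signal of an array was taken as the mean log2 signal of S100a8 and S100a9, the calcium-binding proteins that fill the neutrophil cytosol. S100a8 read 14955, 13260 and 15914 in wild type and 5850, 9972 and 8331 in knockout mice, and S100a9 read 7625, 6675 and 7976 against 2810, 5189 and 3687. Both were lower in every knockout mouse, with log2 changes of -0.90 and -0.97. The combined signal was 13.38, 13.20 and 13.46 in wild type and 11.99, 12.81 and 12.44 in knockout mice. With a gap of 0.39 log2 units the genotypes formed separate clusters, so no correlation over the 6 arrays is given, and the slope of each gene on the neutrophil signal was fitted within genotype. The signal spanned 0.26 log2 units among the wild type mice and 0.83 among the knockout mice, so the slopes rest mostly on the knockout mice.

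Within genotype, 8 of the 9 slopes were positive, against 61.6% of all tested genes, and that of Tpm1 was negative (-0.42). No slope of a member passed over all probes (smallest limma adjusted p 0.588), nor did that of any of the 15743 tested probes, of which 1277 had an unadjusted p under 0.05. At that unadjusted level 3 of the 9 were positive, against 5.69% of all tested genes, and 0 were negative, against 2.98%. These were Zyx, with a slope of 1.70 log2 units per unit of neutrophil signal (SE 0.58, limma adjusted p = 0.588), Coro1a (1.54, SE 0.58) and Tagln2 (1.07, SE 0.42), the latter both at an adjusted p of 0.612. With 1 mouse left out the slope of Zyx was lowest, at 1.06, when knockout replicate 2 was the mouse omitted and highest, at 3.62, when it was knockout replicate 1. The slope of Coro1a ran from 1.06 to 3.23 with the same mice omitted. The slope of Tagln2 ran from 0.84 without wild type replicate 3 to 2.055 without knockout replicate 1. Without wild type replicate 3 and knockout replicate 2 together the slopes of Zyx, Coro1a and Tagln2 were 0.11, 0.074 and 0.73. The slope of Actb was 0.06 (SE 0.17) and that of Vcl 0.12 (SE 0.24).

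With the neutrophil signal as a term in the fit, 0 of the 9 genotype differences had an unadjusted p under 0.05, against 3.58% of all tested genes as lower. The median log2 change of the 9 moved from -0.60 to -0.13, and that of all tested genes from -0.11 to -0.05. Zyx stood at -0.11 (SE 0.62), Coro1a at -0.22 (SE 0.62) and Tagln2 at 0.21 (SE 0.45). Tpm4 had the largest difference of the 9, -0.92 (SE 0.52), with a limma p of 0.116. Actb stood at -0.26 (SE 0.18), close to its difference without the term. Because the genotypes did not overlap in neutrophil signal, the term and the genotype are largely confounded and these standard errors are wide.

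**Figure D3:**
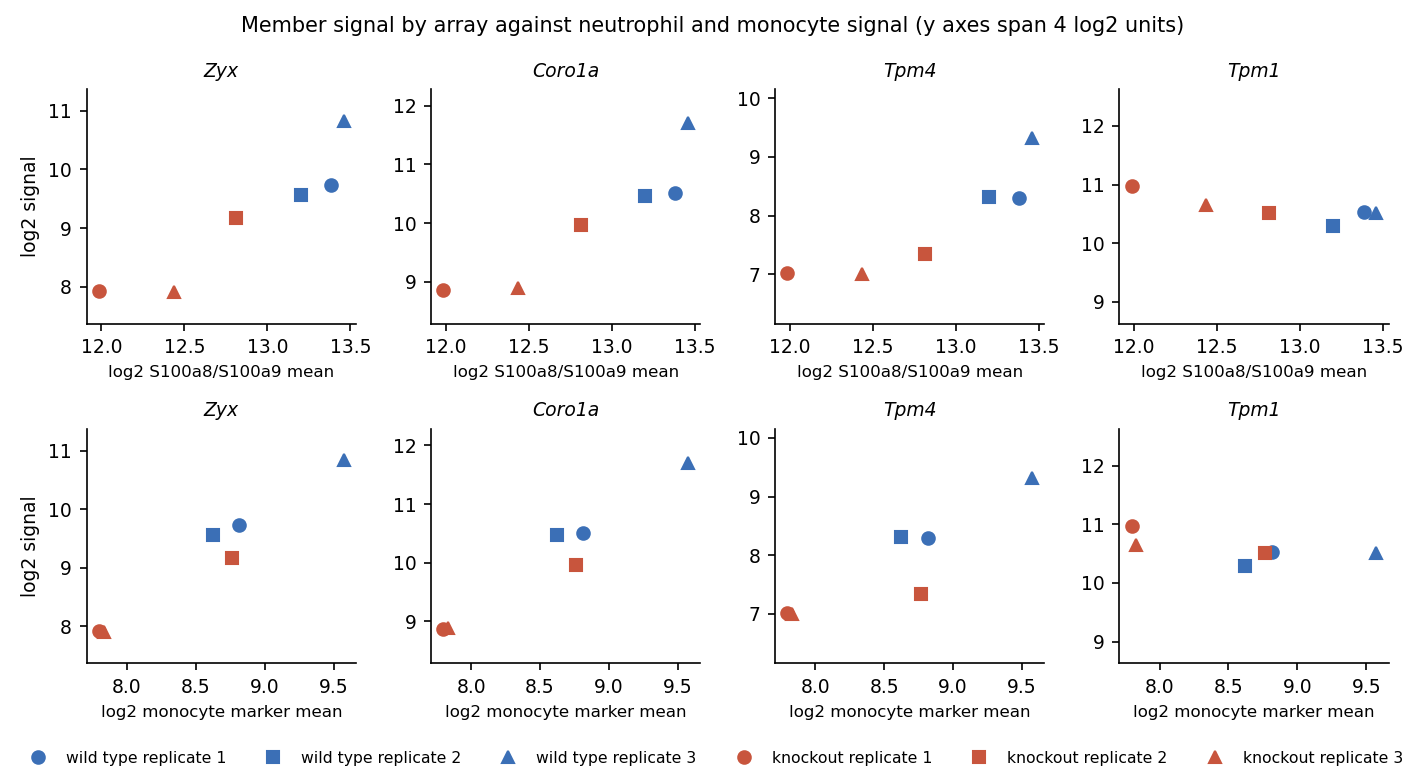
Log2 signal of Zyx, Coro1a, Tpm4 and Tpm1 by array, against the mean log2 signal of S100a8 and S100a9 (top row) and against the mean log2 signal of the tested monocyte and macrophage markers (bottom row); colours mark genotypes and symbols replicates. The genotypes are apart on the neutrophil axis and overlap on the monocyte axis, where knockout replicate 2 lies at 8.76 among wild type replicates at 8.62, 8.82 and 9.57. Zyx and Coro1a climb with the monocyte axis and Tpm4 less steeply (slopes 1.33, 1.25 and 0.71). At equal monocyte signal each was still lower in the knockout mice (-0.54, -0.57 and -0.90), and none passed the adjusted threshold.

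The monocyte and macrophage signal, the mean log2 signal of 18 tested markers, was 8.82, 8.62 and 9.57 in wild type and 7.80, 8.76 and 7.83 in knockout mice. Here the genotypes overlapped, since knockout replicate 2 exceeded wild type replicate 2. Wild type replicate 3 and knockout replicate 2 were the high mice of their genotypes on this axis, as they were for most of the 9 genes. The markers behind this signal did not move alike. F13a1 read 193, 134 and 747 in wild type and, near background, 98.6, 99.8 and 88.9 in knockout mice. C1qb read 862, 835 and 925 against 334, 1198 and 334. In others, such as Lyz2, both mice were the highest of their genotype. Slopes on this signal are therefore not per unit of a single cell type. With this signal in place of the neutrophil signal, the slope within genotype passed over all probes for 5 of the 9 genes, against 5.31% of all tested genes as positive and 0.0605% as negative. Zyx rose by 1.33 log2 units per unit of monocyte signal (SE 0.08, limma adjusted p = 0.00141) and Coro1a by 1.25 (SE 0.10, adjusted p = 0.00207). Tagln2 (0.83, adjusted p = 0.0213), Tpm3 (0.51, 0.0242) and Flna (0.63, 0.0401) also passed. Tpm4, at 0.71, missed the threshold (adjusted p = 0.0536), and Vcl (0.24, 0.196), Actb (0.07, 0.687) and Tpm1 (-0.11, 0.710) did not pass.

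Leaving out mice 1 at a time, the number of the 9 that passed for the monocyte signal ran from 2 to 6. It was 2 without wild type replicate 1, 2 or 3 or without knockout replicate 1, 3 when knockout replicate 3 was omitted and 6 when it was knockout replicate 2, where 1.21% to 5.13% of all tested genes passed in either direction. Zyx and Coro1a passed each time, with slopes of 1.30 to 1.36 and 1.12 to 1.38. With wild type replicate 3 and knockout replicate 2 both left out, an alternative chosen after seeing the data, 0 of the 9 passed, and the slopes of Zyx and Coro1a were 0.88 and 0.24. That fit holds 4 mice and 3 coefficients, which leaves little to test with.

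At equal monocyte signal, 0 of the 9 genotype differences passed over all probes, against 0.0692% of all tested genes. At an unadjusted p under 0.05, 4 of the 9 were lower, against 4.65% of all tested genes. Tpm4 stood at -0.90 (SE 0.20, limma adjusted p = 0.357), Coro1a at -0.57 (SE 0.12, 0.350), Zyx at -0.54 (SE 0.10, 0.249) and Actb at -0.26 (SE 0.10, 0.644). The differences of Tpm3, Flna and Tagln2 were -0.03, -0.05 and -0.08, down in size from -0.47, -0.60 and -0.80 without the term. With all 16 tested neutrophil markers as the signal, 0 of the 9 slopes passed, against 0.147% of all tested genes, and 6 were positive at an unadjusted p under 0.05, against 16% of all genes. At equal signal of those markers 0 of the 9 differences passed (0.0173% of all genes) and 0 were lower at the unadjusted level (1.78%), while Tagln2 stood at 0.66 (unadjusted p = 0.0321, limma adjusted p = 0.899). With megakaryocyte and platelet markers as the signal, 0 slopes passed and 1 was positive at the unadjusted level, against 3.64% of all genes: Tpm4, at 1.81 log2 units per unit (limma adjusted p = 0.826). At equal megakaryocyte signal 0 differences passed (0.00865%) and 0 were lower unadjusted (0.865%). The genotypes overlapped neither in the signal of all neutrophil markers nor in the megakaryocyte signal, so these terms and the genotype are largely confounded. The megakaryocyte signal ran from 7.42 to 7.89 in wild type but only from 7.05 to 7.11 in knockout mice. Its slopes therefore rest mostly on the wild type mice.

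Markers of several other blood cell types moved with genotype in the same arrays. Of all tested genes, 81.2% were below 0, 23.2% were lower without overlap and 0.104% passed as lower. All 16 tested neutrophil markers of 24 listed were lower without overlap, and their mean log2 signal ranged from 9.92 to 10.72 in wild type and from 8.78 to 9.49 in knockout mice. Among them were Ngp (log2 change -1.60) and Camp (-1.31), proteins of neutrophil granules. All 18 tested monocyte and macrophage markers of 24 were below 0, and 4 of them did not overlap, a share close to that of all tested genes. Those 4 include the lysozyme genes Lyz2 (-1.65) and Lyz (-1.41), near-identical copies whose probes may read both. Megakaryocyte and platelet markers ranged from 7.42 to 7.89 against 7.05 to 7.11, with 10 of 11 tested without overlap. Of these, 2 (Gp1bb and Gp6) were undetected in every knockout mouse. They met the detection filter only through the wild type mice, so their lack of overlap is partly built in by the filter. The chemokine Ppbp, released by platelets, had a log2 change of -1.65 there. Of 9 tested B lineage markers 7 did not overlap, and Cd79b (-0.96, limma adjusted p = 0.00383) and Ly6d (-0.62, 0.0426) passed. The T and NK list had 2 tested genes of 8, Nkg7 and Cd3e, with overlapping groups. Of 3 tested stromal markers, Igfbp5 passed (-0.83, adjusted p = 0.0196). The tested erythroid markers had a median of 0.08. The part of these cell types in the changes of the actin genes was not tested beyond the fits with the neutrophil, monocyte and megakaryocyte signals.

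**Figure D4:**
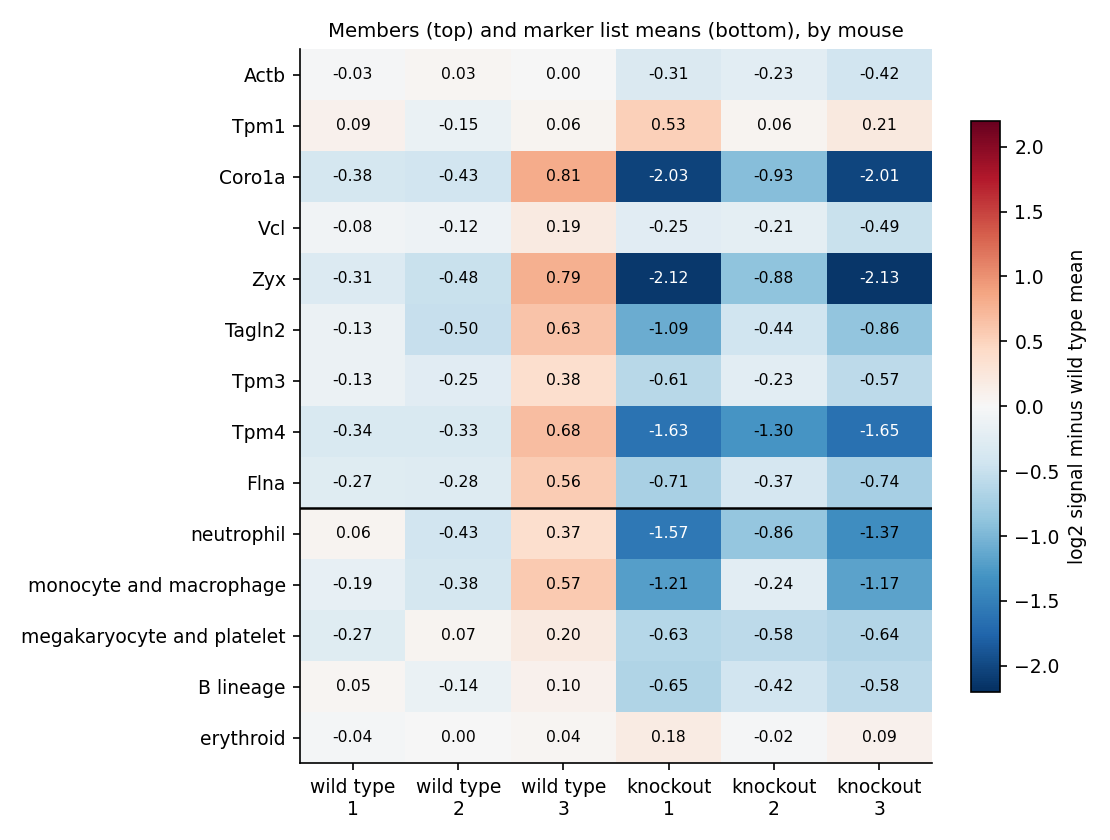
Log2 signal minus the wild type mean for each mouse, for the 9 genes above the line and for the mean of each marker list below it; red is higher and blue lower than the wild type mean, and the numbers are the values. Wild type replicate 3 is above its group's mean in the neutrophil (0.37) and monocyte (0.57) rows and in Zyx (0.79) and Coro1a (0.81), and knockout replicate 2 is the knockout mouse closest to the wild type mean in all 9 genes.

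Further genes of the pathway were taken from lists. SRF itself, the transcription factor, read 225, 193 and 251 in wild type and 159, 197 and 175 in knockout mice, with overlapping groups and a log2 change of -0.33 (SE 0.12, limma adjusted p = 0.222). Of 13 listed genes for SRF, its cofactors and its regulators, 4 were tested and 3 were lower at an unadjusted p under 0.05, against 18.6% of all tested genes. Besides Srf these were Arhgef1 (-0.46), a RhoA exchange factor, and Elk3 (-0.43), an SRF partner of the ETS family. Rock1, a kinase downstream of RhoA, stood at 0.04. The immediate early targets had 7 tested of 15 listed, with 3 lower at an unadjusted p under 0.05, against the same 18.6%. Their median was -0.33, beside -0.11 over all tested genes. Fos, a subunit of the AP-1 transcription factor, read 234, 221 and 346 in wild type and 120, 176 and 115 in knockout mice, without overlap (-0.96, adjusted p = 0.166). Mcl1 stood at -0.33 and Junb at -0.44, and Egr1, at -0.36, had an unadjusted p of 0.0798.

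Cytoskeletal targets of SRF and MRTF other than the 9 genes had 19 tested of 32 listed. All 19 were below 0, 12 were lower at an unadjusted p under 0.05, 9 did not overlap and 0 passed the adjusted threshold. Of all tested genes 81.2% were below 0, 18.6% were lower at the unadjusted level and 23.2% did not overlap. Their median was -0.30, beside -0.11 over all genes. Anxa2, a membrane-binding annexin, read 749, 462 and 1722 in wild type and 204, 401 and 199 in knockout mice (-1.73, adjusted p = 0.180). Tmsb10, a thymosin that binds actin monomers, read 1063, 775 and 2632 against 316, 416 and 524 (-1.66, adjusted p = 0.180). In both the high wild type mouse was replicate 3, as it was for Zyx and Coro1a. Actn1, an alpha-actinin that crosslinks filaments and binds zyxin and vinculin, did not share that pattern: it read 409, 401 and 406 in wild type and 171, 313 and 180 in knockout mice (-0.93, adjusted p = 0.170).

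Partners of zyxin, vinculin and talin had 15 tested of 17 listed, all below 0, with 2 lower at an unadjusted p under 0.05, 5 without overlap and a median of -0.17. The same shares of all tested genes, 81.2%, 18.6% and 23.2%, are the background for these counts. Actn1, Actn4 and Tln1 also belong to the cytoskeletal list, and Actn1 is among those lower and without overlap in both. Fermt3, the integrin activator kindlin 3 of blood cells, stood at -0.31, and the focal adhesion proteins Ptk2 and Pxn at -0.17 and -0.19. That median was 0.0037 after centring on the tested probes, so its direction depends on the scaling. Coronins and filamins other than the members had 4 tested of 7, Coro1b (-0.44), Coro1c (-0.32), Coro7 (-0.12) and Coro2a (-0.01), 1 of them, Coro1b, with an unadjusted p under 0.05. In the transgelin and calponin family 1 of 5 was tested, the calponin Cnn2 (-0.43, no overlap), which also belongs to the cytoskeletal list.

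Sarcomeric and smooth muscle actins had 1 tested gene of 5, Acta1, whose probe was near background at 100, 104 and 93.4 in wild type and 131, 100 and 122 in knockout mice. Of 6 other tropomyosin and tropomodulin genes 3 were tested. Tmod1, the tropomodulin that caps filaments of the red cell membrane, read 852, 687 and 680 in wild type and 1114, 653 and 1024 in knockout mice, a log2 change of 0.30 (SE 0.20, limma adjusted p = 0.432) with overlapping groups. Tmod3 stood at -0.16 and Tmod4 at -0.04. Tmod1 and Tpm1, which act together at filament ends in red cells, were both highest in knockout replicate 1 and both had knockout replicate 2 as the lowest knockout mouse, and neither passed. That order is not particular to them: the mean log2 signal of the tested erythroid markers was 12.57, 12.37 and 12.47 in the knockout mice.

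**Figure D5:**
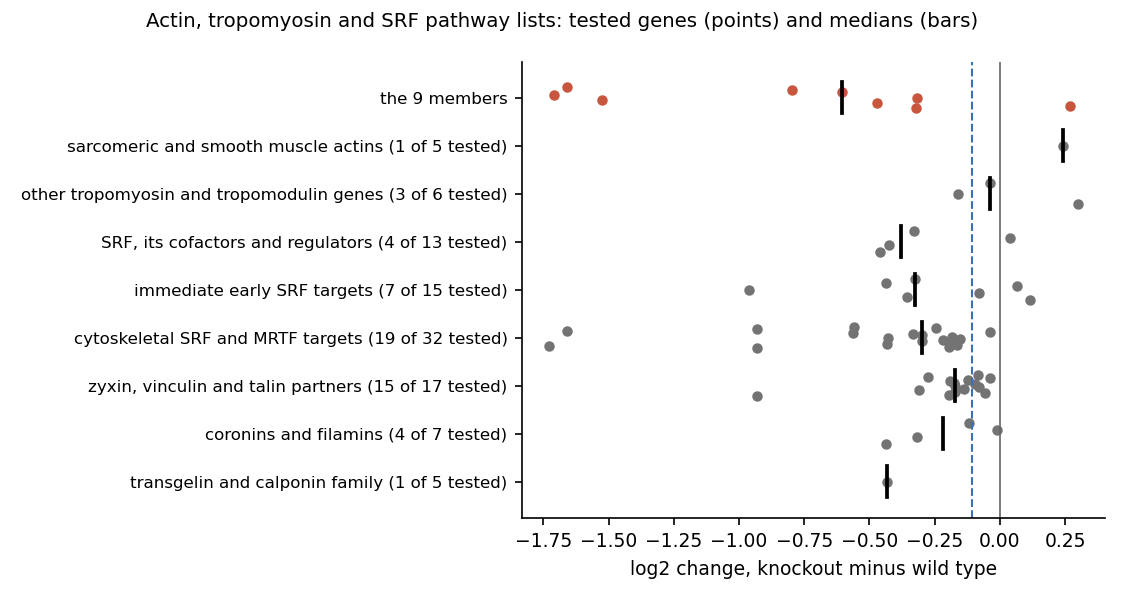
Log2 change, knockout minus wild type, of the 9 genes (red) and of the tested genes of 8 pathway lists (grey), 1 point per gene by its brightest probe, with a black bar at each median; the dashed line is the median of all tested genes (-0.11). The 9 genes have a median of -0.60, the 19 cytoskeletal SRF and MRTF targets have one of -0.30, and the 15 zyxin, vinculin and talin partners one of -0.17.

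Genes whose pattern over the 6 arrays was most like each bright member were ranked by Pearson's r of log2 signal minus the array median, among 7897 named genes, as a description over 6 arrays that share the difference between genotypes. For Zyx these were Lbh (r = 0.998), Fos (0.996) and Nrp1 (0.995), and for Coro1a they were Lbh (0.997), Tmem185b (0.996) and Arrb2 (0.995). Tpm3 had Unc93b1 (0.998), Cytip and Ctsz (both 0.995), and Tagln2 had Hcst (0.998), Pitpna (0.995) and Gpi1 (0.994). For Vcl they were Zbtb33 (0.994), Lmf1 (0.993) and Dscr1 (0.982), and for Actb Inpp5a (0.995), Rsrc1 and Ppap2b (both 0.969). Tpm1 stood with Ppm1d (0.998), Tcf19 (0.997) and Mrs2 (0.992). The number of genes with r of 0.95 or more ran from 5 for Actb and 18 for Vcl through 99 for Tpm1 to 165 for Coro1a, 180 for Zyx, 193 for Tagln2 and 199 for Tpm3.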

How the data were processed

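The arrays measured transcripts in Ter119-positive cells from the bone marrow of 3 wild type and 3 mDia2 knockout mice, grouped by the genotype label, with 1 Illumina bead array each. Per the file headers, the authors deposited an average signal, an intensity on a linear scale, and a detection p-value for each probe and array, and the table's name calls the values normalized. The normalization method was not given in the sources used here. The median signal of undetected probes was 86.7 to 89.5 on the arrays, so the deposited values have a floor above 0. That floor alone does not show whether a background had been subtracted. Per the labels' protocols, RNA was extracted with Trizol and amplified into biotinylated cRNA. A series table of intensity values deposited by the authors was identical (largest difference 0).

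Intensities were log2 transformed. A probe entered the tests if its detection p-value was under 0.05 on 3 or more of the 6 arrays, as for 15743 of 45281, leaving out 2 lines without values and any gene name for 54 symbols altered to dates or numbers. The probe with the highest mean stood for its gene. The genotype difference (knockout minus wild type) came from limma 3.58.1 (lmFit, then eBayes; R 4.3.3), as two-sided tests adjusted by Benjamini-Hochberg across the tested probes, and 0.05 was the threshold. Slopes on a cell type signal come from the same fit with genotype and that signal as terms. The code was tested on simulated data. All members were named with every probe; from each pathway or marker list up to 4 genes with the smallest unadjusted p, and any tested member of a list of 6 or fewer; and for each bright member the 3 genes with the highest r. The members and lists were chosen with earlier results of these data known, so no list has a p-value. The alternatives covered scaling, background correction, filters, array weights, the variance model and the mean of a gene's probes. They also covered a pseudocount of 16, the number series of the animals, the replicate block and each mouse left out. Deviations of mice with equal replicate numbers correlated at 0.22, -0.28 and -0.19, and those of mice with different numbers at -0.28 to 0.34. With 3 mice per genotype these values cannot exclude a pairing, and the numbers are used as names only.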

Additional observations from a re-analysis of the deposited data

How the results depend on the processing

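No member's log2 change reversed under any of the 19 alternatives to the genotype fit. The median change of the members ran from -0.76 with normexp background correction (nec) to -0.33 without wild type replicate 3. The number without overlap, 6 in the main fit, ran from 5 to 8. The value of 8 came from settings with mice left out, where the groups of any gene separate more easily. The share of all tested genes, 23.2% in the main fit, was not computed for the other settings. The median of all tested genes was -0.11 as deposited, 0.0097 when quantile normalized and 0.07 when centred on the tested probes, where the members' medians were -0.43 and -0.43. The number of the 9 members that passed the adjusted threshold was 0 in the main fit, 1 centred on the tested probes (Tpm4), 2 with an intensity trend (Tpm4, Coro1a) and 3 with array weights (Tpm4, Zyx, Coro1a), which gave wild type replicate 3 a weight of 0.364 and knockout replicate 2 one of 0.549. Leaving out 1 mouse at a time gave 0 to 3, where 0.0519% to 1.31% of all tested genes passed in either direction. Leaving out wild type replicate 3 and knockout replicate 2 together, chosen after seeing the data, gave 7. There 7.13% of all tested genes passed, so calls rose over the whole array. The count at an unadjusted p under 0.05 was 5 with a term for the number series of the animals, against 8 in the main fit. The series divides the mice by lower and higher animal numbers. The lower numbers were more frequent among the knockout mice, so the term is not balanced with genotype. With that term 13.8% of all tested genes had such a p in either direction. With the replicate number as a block the adjusted count was 0, as in the main fit, where no member had a call to lose. Calls over all tested genes fell from 0.104% to 0.0259% with the block, in a fit with fewer degrees of freedom. The smallest limma adjusted p of a member was then 0.348 and that of the target 0.258. The target's log2 change passed at -1.12 with an intensity trend (limma adjusted p = 0.0164), at -1.04 with array weights (0.0236), at -0.91 without knockout replicate 2 (0.0139) and at -0.93 without both mice (0.00274), and it ran from -1.29 to -0.91 with 1 mouse left out.

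The number of members with a slope that passed was 0 for the neutrophil signal and 5 with the monocyte signal in its place. For the monocyte signal, alternatives chosen after seeing the data gave 3 with quantile normalization, 3 when centred, 2 to 6 with 1 mouse left out and 0 without both mice. Of all tested genes 3.33%, 3.24%, 1.21% to 5.13% and 0.0173% passed in those settings, in either direction. Some slopes and differences changed sign, and the cause was not tested. Slopes on the neutrophil signal turned for Actb (-0.0034 centred, -0.25 without both mice, -0.21 to 0.27 with 1 mouse left out), Tpm1 (-0.56 to 0.048 with 1 mouse left out), Vcl (-0.0066 quantile normalized, -0.070 centred, -0.43 without both mice, -0.13 to 0.84 with 1 left out), Tpm4 (-0.040 without both, 0.36 to 1.68 with 1 left out) and Flna (-0.043 without both, 0.38 to 1.54 with 1 left out). Slopes on the monocyte signal turned for Actb (-0.089 centred, -0.44 without both mice, -0.018 to 0.21 with 1 left out), Tpm1 (0.92 without both, -0.28 to 0.14 with 1 left out), Tpm4 (-0.051 without both, 0.34 to 1.14 with 1 left out) and Vcl (-0.017 without both, 0.17 to 0.32 with 1 left out). At equal signal of all neutrophil markers, the differences of Tpm1 (0.14), Vcl (0.023), Zyx (0.40), Flna (0.37) and Coro1a (0.28) turned against those at equal S100a8 and S100a9 signal. At equal megakaryocyte signal those of Tpm1 (0.12), Flna (0.31) and Tagln2 (-0.058) turned, and at equal monocyte signal those of Tpm1 (0.17), Tpm3 (-0.026) and Tagln2 (-0.077). The medians of 13 of 15 lists kept their direction under both scalings. That of the other tropomyosin and tropomodulin genes, -0.04 as deposited, was 0.0084 quantile normalized and 0.14 centred. Tpm4 and Flna lie nearest to the background signal, and changes of probes near background are understated.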

Other observations

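The dimmest Actb probes followed a course of their own. The pair read 319, 395 and 216 and 301, 377 and 213 in wild type mice, and 179, 150 and 345 and 180, 158 and 309 in knockout mice. Knockout replicate 3 was high in both and wild type replicate 3 was the lowest wild type mouse in both, unlike in the other 3 Actb probes. They correlated with each other at r = 0.997 over the 6 arrays and with the 3 brighter Actb probes at r = -0.19 to 0.33. Chosen after seeing the data, the named gene most like each of them was the histone gene Hist2h2aa1 (r = 0.995 and 0.991), followed by Fmo1 or Dennd3. What these probes read was not tested, and the report's values for Actb do not rest on them.

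For the members of the middle class, added after seeing the data, the genes with the most similar course were Uvrag (r = 0.993), the platelet tetraspanin Cd9 (0.992) and the endothelial and platelet adhesion gene Esam (0.991) for Tpm4, and the transcription factor Irf5 (0.999), Spg21 and Bcl10 (both 0.993) for Flna. For 86 genes r was 0.95 or more with Tpm4, and for 136 genes with Flna. The log2 difference of Tpm4 minus Coro1a was -2.21, -2.16 and -2.39 in wild type and -1.85, -2.62 and -1.89 in knockout mice, with overlapping groups.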
